A study of Mus musculus with 4 samples.

Results

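The Toll-like receptor family was followed in tumor-associated macrophages (TAMs) through 10 genes, of which 4 encode receptors of the cell surface (Tlr1, Tlr2, Tlr4 and Tlr6), 5 encode sensors of nucleic acid in endosomes (Tlr3, Tlr7, Tlr8, Tlr9 and Tlr13), and 1, Unc93b1, encodes the chaperone that carries the endosomal sensors out of the endoplasmic reticulum. The genes were taken by symbol from the 16739 genes with a value in at least 1 library, and all 10 passed the filter on low counts that left 11302 genes for testing. RNA was sequenced from CD45+ CD11b+ F4/80+ cells sorted from subcutaneous B16-F10 melanomas, a mouse melanoma line, 16 days after injection into C57BL/6 mice that were 6 to 8 weeks old at injection. There were 2 libraries from wild type mice (WT) and 2 from mice labelled Trim24-/-, in which floxed Trim24 was deleted by LysM-Cre, a recombinase active in myeloid cells that include monocytes and granulocytes as well as macrophages. Whether the WT littermates carried a floxed allele or Cre is not given in the sources used here, and nothing in the labels says that replicates are separate mice, so that p-values measure only the spread between these libraries.

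Toll-like receptors are membrane proteins with a leucine-rich ectodomain that binds microbial molecules and a cytoplasmic TIR domain that recruits adaptors. Tlr2, paired with Tlr1 or Tlr6, binds lipoproteins, and Tlr4, with its partner Ly96, binds lipopolysaccharide. Tlr3 binds double-stranded RNA, Tlr7 and Tlr8 single-stranded RNA and its breakdown products, Tlr9 unmethylated CpG DNA, and Tlr13, which mice have and humans lack, a bacterial ribosomal RNA. All of them but Tlr3 signal through the adaptor Myd88, and macrophages use both arms to start NF-kappaB and interferon programs.

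Library totals ran from 4476122 to 5172407 expected counts (reads assigned to a gene by RSEM, which splits shared reads between genes), so that 3 counts, the floor used here, correspond to 0.58 to 0.67 CPM (the count relative to the TMM-scaled library size of edgeR). The floor concerns counting error alone, and genes above it still carry counting error. Transcript of the targeted gene, Trim24, was at 5.86 CPM in WT replicate 1, 2.08 in WT replicate 2, 3.41 in the library labelled Trim24-deficient replicate 1 and 0.411 in replicate 2. The groups overlapped, and values without a label keep this order. The label was therefore not separated by the transcript of its own gene, and the second group is called the libraries labelled Trim24-deficient throughout. The 4 Y-linked transcripts checked summed to 140 and 174 CPM in WT and to 0.426 and 1.44 CPM in libraries labelled Trim24-deficient, and the X-linked Xist, the RNA that coats the inactive X chromosome of female cells, was at 10.9, 6.46, 437 and 256 CPM, in the order of libraries just given. The methods of the study describe sex-matched mice, but in these libraries the genotype label and the sex-linked transcripts split the samples alike, and genotype and sex cannot be told apart. This touches the endosomal sensors directly, since Tlr7, Tlr8 and Tlr13 lie on the X chromosome. Macrophage markers were high in all libraries, with Adgre1 (F4/80) between 1040 and 1300 CPM and Csf1r between 1320 and 1570 CPM.

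Of the 10 genes, 1 differed between the groups by more than 1.5-fold with a Benjamini-Hochberg adjusted p under 0.05 (edgeR's quasi-likelihood test fitted on all 11302 genes). This was Tlr7, which was lower in libraries labelled Trim24-deficient. Over all genes tested, 0.0796% were called lower and 0.292% higher. DESeq2 called 0.212% of all genes lower, Tlr7 and Tlr8 among them, and 1.17% higher. A fit with the replicate number as a block called 1.85% lower, again with Tlr7 and Tlr8, and 3.76% higher. The unadjusted p was under 0.05 for 3 members, Tlr7 and Tlr8 on the lower side (5.62% of all genes) and Unc93b1 on the higher side (6.58%). In CPM, the 2 libraries of one group lay wholly above or below the other group for 7 members. Of these, 5 were higher (Tlr1, Tlr4, Tlr6, Tlr13 and Unc93b1) and 2 lower (Tlr7 and Tlr8). Over all genes, 21.4% were higher and 23.0% lower in this way. The TMM factors were 1.03 and 1.08 in WT and 0.957 and 0.943 in libraries labelled Trim24-deficient. In FPKM, the authors' value per kilobase of transcript, which is not TMM-scaled, the groups overlapped for Tlr1, Tlr4 and Tlr13. Those of Tlr6, Unc93b1, Tlr7 and Tlr8 stayed apart. The median log2 fold change was 0.26 over the 4 surface receptors, 0.15 over the 5 endosomal sensors and -0.01 over all genes tested. With 2 libraries per group, the smallest p that an exact two-sided permutation test of a single gene can give is 0.333.

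**Figure D1:**
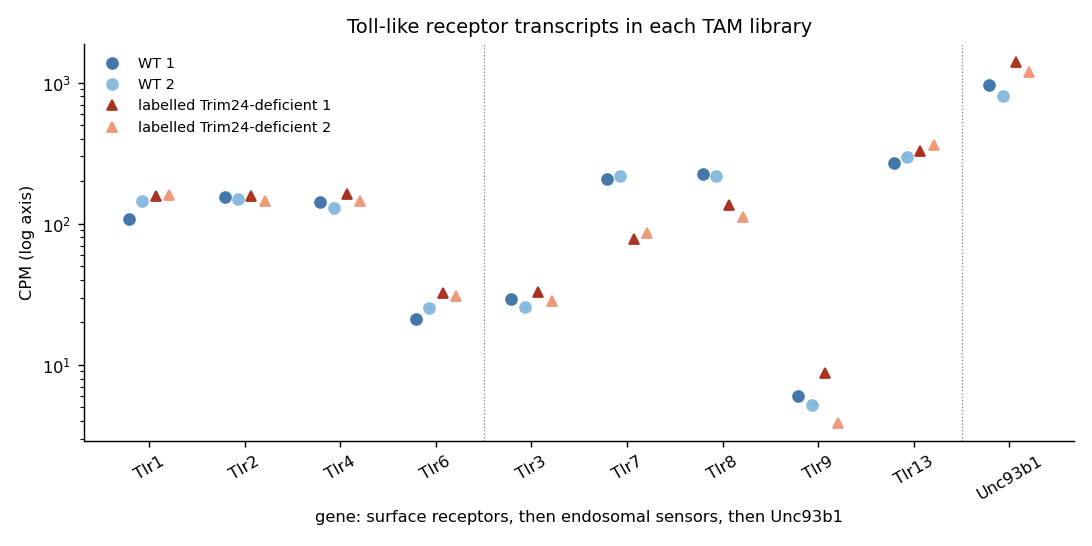
CPM of each of the 10 genes (log axis) in each WT library (circles) and each library labelled Trim24-deficient (triangles), with dotted lines between surface receptors, endosomal sensors and Unc93b1. The triangles of Tlr7 (77.5 and 86.3 CPM) and Tlr8 (137 and 111 CPM) sit below both circles, whereas those of Tlr13 (328 and 361 CPM) sit above.

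Tlr7 (Entrez gene 170743) occupies bases 167303380 to 167330574 of chromosome X (GRCm38, minus strand) and has 5 exons in its longest basic transcript of GENCODE. It was at 208 CPM in WT replicate 1, 219 CPM in WT replicate 2, 77.5 CPM in the library labelled Trim24-deficient replicate 1 and 86.3 CPM in the library labelled Trim24-deficient replicate 2. Both libraries labelled Trim24-deficient were far below both WT libraries, and the gap was many times the spread within either group (213 ± 7.63 CPM in WT and 81.9 ± 6.2 CPM in the other group, SD, n = 2 each). The log2 fold change was -1.38 (standard error 0.19, 95% interval -1.80 to -0.96, adjusted p = 0.0165, edgeR quasi-likelihood), which leaves 38.4% of the WT level. Under the 14 alternative settings the change stayed between -1.53 and -1.30, and it was called in 13 of them. The exception was the fit without WT replicate 2 (log2 fold change -1.34, adjusted p = 0.121). In a sorted bulk population, fewer cells that express a gene and less RNA per cell cannot be told apart.

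Tlr8 (Entrez gene 170744), the next tested gene towards lower coordinates, lies on the same strand from 167241123 to 167264329 and has 3 exons. Its levels were 224 and 218 CPM in WT and 137 and 111 CPM in libraries labelled Trim24-deficient. The groups did not overlap, and the level was 56.1% of WT in the fit. The log2 fold change was -0.83 (standard error 0.20, 95% interval -1.27 to -0.40), with an unadjusted p of 0.00185 and an adjusted p of 0.141 from edgeR's quasi-likelihood test, so that Tlr8 was not called. DESeq2 gave the same change, -0.83, with an adjusted p of 0.0432, and without the library labelled Trim24-deficient replicate 1 the change was -0.99 with an adjusted p of 0.00763. Over the 14 alternatives, the adjusted p of Tlr8 ranged from 0.00288 to 0.78, and its log2 fold change was below 0 in all 14.

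Tlr13 (Entrez gene 279572) also lies on chromosome X, from 106143275 to 106160493 on the plus strand, with 3 exons. It was at 271 and 295 CPM in WT and at 328 and 361 CPM in libraries labelled Trim24-deficient. Both of the latter libraries were above WT in CPM, the opposite order to Tlr7 and Tlr8. In FPKM the groups of Tlr13 overlapped, at 68.67 and 77.82 in WT and 77.2 and 83.6 in the other group. The log2 change of 0.28 (standard error 0.19, 95% interval -0.15 to 0.72, adjusted p = 0.584, edgeR quasi-likelihood) did not pass. Tlr7, Tlr8 and Tlr13 all lie on the X chromosome, and the part of that location in their values was not tested.

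The autosomal endosomal sensors were the 2 members with the lowest FPKM. Tlr3 (chromosome 8, 45395665 to 45411075, minus strand, 7 exons) was at 29.3, 25.6, 32.8 and 28.2 CPM, with overlapping groups and a log2 fold change of 0.15 (95% interval -0.34 to 0.64). Tlr9 (chromosome 9, 106222598 to 106226876, plus strand, 2 exons) rested on 30, 25, 41 and 19 expected counts, or 6.06, 5.21, 8.73 and 3.9 CPM. The library labelled Trim24-deficient replicate 1 was the highest for Tlr9 and replicate 2 the lowest, and the 95% interval of its log2 fold change, -0.90 to 1.22, holds both 0 and the change of Tlr8, so that a change of that size was not detectable in these libraries. Dendritic cells are known for these sensors, and the 8 conventional dendritic cell markers summed to 125, 127, 158 and 104 CPM. Of these, 6 were tested and none was called by edgeR. The sum joins markers of unlike order, since 3 had changes above 0 and 3 below. In CPM, 2 were wholly lower in libraries labelled Trim24-deficient and 0 wholly higher. Named after their values were seen, Flt3 was at 3.84, 5.42, 1.28 and 0.205 CPM and Xcr1 at 22.4, 16.3, 46.4 and 13.4 CPM. Siglech, a defining marker of plasmacytoid dendritic cells, was at 0.606, 4.58, 0.639 and 0.616 CPM, at about the floor in all but WT replicate 2. The part of other cells in the levels of Tlr3 and Tlr9 was not tested.

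Unc93b1 (Entrez gene 54445; chromosome 19, 3935158 to 3949340, plus strand, 11 exons), without which the nucleic acid sensors do not reach endosomes, had the highest FPKM of the 10 in every library. It was at 966 and 803 CPM in WT and at 1400 and 1180 CPM in libraries labelled Trim24-deficient. Both of the latter were above both WT libraries, with a log2 change of 0.54 (standard error 0.22, 95% interval 0.04 to 1.04). The unadjusted p was 0.036 and the adjusted p 0.371 in edgeR's quasi-likelihood test, and none of the 14 alternatives called it, although all 14 gave a change above 0. The chaperone and its client Tlr7 thus stood in opposite order between the groups.

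Among the surface receptors, the transcript of Tlr2 was the most even. Tlr2 (chromosome 3, 83836272 to 83841824, minus strand, 3 exons), the shared partner of the lipoprotein receptors, was at 154, 150, 157 and 145 CPM, a ratio of 0.997 between the groups with a 95% interval of the log2 fold change from -0.41 to 0.40. Tlr4 (chromosome 4, 66827551 to 66846581, plus strand, 3 exons), the lipopolysaccharide receptor, was at 142 and 130 CPM in WT and at 162 and 146 CPM in libraries labelled Trim24-deficient. The groups of Tlr4 did not overlap in CPM but did in FPKM. The log2 fold change was 0.18 (95% interval -0.23 to 0.60, adjusted p = 0.732, edgeR quasi-likelihood). Tlr1 and Tlr6, the partners of Tlr2, are neighbours on the minus strand of chromosome 5, at 64924680 to 64933600 (4 exons) and 64953092 to 64970942 (2 exons). Tlr1 was at 109, 144, 157 and 160 CPM and Tlr6 at 21.2, 25.2, 32.2 and 31 CPM. For both, the WT libraries were the lower ones in CPM, but in FPKM only for Tlr6. The log2 fold changes of Tlr1 and Tlr6 were 0.33 (95% interval -0.12 to 0.78) and 0.45 (95% interval -0.05 to 0.94). Their adjusted p was 0.545 and 0.44 in edgeR's quasi-likelihood test.

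**Figure D2:**
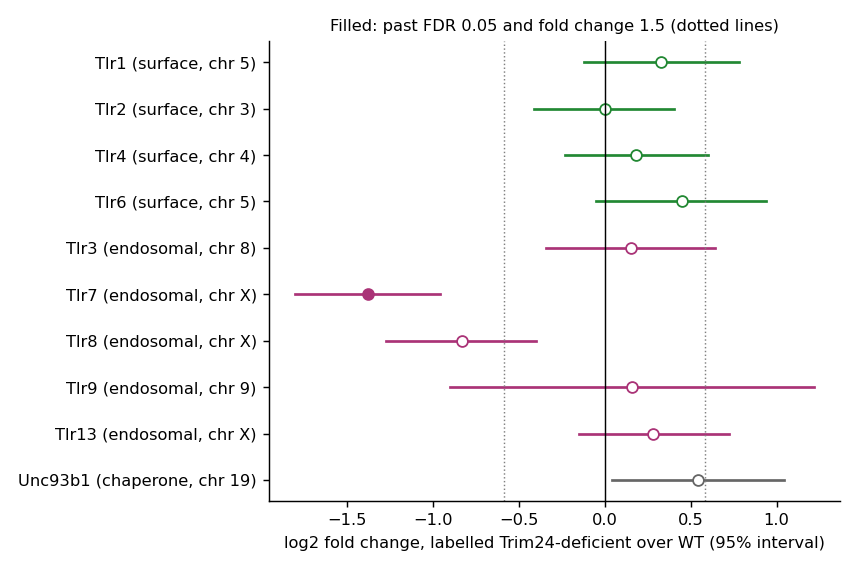
Log2 fold change of each gene, libraries labelled Trim24-deficient over WT, with its 95% interval from edgeR. The filled point is the called gene, and the dotted lines mark a fold change of 1.5. The interval of Tlr7 (-1.80 to -0.96) lies wholly beyond the left line, that of Tlr8 (-1.27 to -0.40) lies below 0, and those of the 4 surface receptors include 0.

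Tlr1 and Tlr6 were the members whose counts were not whole numbers (for example 538.78 and 105.22 in WT replicate 1), which is how RSEM records reads split between genes. In GENCODE transcripts, 15.3% of the 50-base windows of Tlr1 also occurred in Tlr6, whereas no such window of Tlr2, Tlr3, Tlr4, Tlr7, Tlr8, Tlr9, Tlr13 or Unc93b1 occurred in another gene. The longest identical coding stretch of the pair has 229 bases, at coding bases 1468 to 1696 of Tlr1 and 1507 to 1735 of Tlr6, and is printed here because reads inside it cannot be assigned to either gene by sequence.
Tlr1 and Tlr6 shared stretch: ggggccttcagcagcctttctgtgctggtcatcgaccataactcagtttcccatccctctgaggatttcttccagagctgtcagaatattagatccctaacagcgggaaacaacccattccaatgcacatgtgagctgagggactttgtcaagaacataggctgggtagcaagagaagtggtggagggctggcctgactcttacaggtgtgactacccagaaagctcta
The separate values of Tlr1 and Tlr6 are therefore less certain than those of the other 8 genes. The FPKM ratio of Tlr1 to Tlr6 was 4.68, 5.23, 4.5 and 4.76 in the 4 libraries, and its ranges in the groups overlapped.

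The 3 X-linked sensors were set beside their chromosome. Of 356 X-linked genes tested, 3 were called lower (Tlr7, Prps2 and Slc6a8) and 2 higher (Xist and Tsix), and their median log2 fold change was -0.07, against -0.00 over 10917 autosomal genes. Of the 10917 autosomal genes, 2 were called lower and 29 higher, so that 3 of the 9 genes called lower were X-linked, and a further 4 were Y-linked. Tlr7 had the fourth lowest change of the X-linked genes and Tlr8 ranked 13. Slc6a8 and Tsix were named after their values were seen. Kdm6a, which is known to escape X inactivation in mice, was at 15.1, 13.5, 29.6 and 31.4 CPM, higher in libraries labelled Trim24-deficient, and Ddx3x, which also escapes, was at 174, 169, 131 and 128 CPM, lower in them, although neither was called (adjusted p = 0.111 and 0.407, edgeR quasi-likelihood). Kdm5c and Eif2s3x, further escape genes, had log2 fold changes of 0.34 and 0.30 and were not called.

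The tested genes on either side of the Tlr8 and Tlr7 pair had the same order between the groups as the pair itself. Prps2, which encodes a phosphoribosyl pyrophosphate synthetase of nucleotide synthesis, lies 15745 bases beyond Tlr7 and was at 93.5 and 97.9 CPM in WT and at 44.9 and 37.6 CPM in libraries labelled Trim24-deficient. It fell by 1.21 on the log2 scale (standard error 0.19, adjusted p = 0.0371, edgeR quasi-likelihood). Tmsb4x, which encodes the actin-binding peptide thymosin beta 4, ends 27643 bases before Tlr8 and was at 10900, 11200, 7230 and 6250 CPM, with a log2 change of -0.72 (standard error 0.24, adjusted p = 0.273). In this run of tested genes, Tmsb4x, Tlr8, Tlr7 and Prps2, both libraries labelled Trim24-deficient lay below WT for each gene, as for 27.0% of X-linked and 23.0% of all genes tested, and edgeR called Tlr7 and Prps2 alone. The 4 other tested genes within 1 Mb of Tlr7, which were looked at after these values were seen, all lay farther off than this run, towards lower coordinates, and had log2 fold changes of -0.46 (Ofd1), -0.02 (Trappc2), 0.24 (Rab9) and 0.26 (Tceanc). Over the 6 genes around the pair of Tlr8 and Tlr7, 3 were wholly lower and 1 wholly higher.

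The tested neighbours of Tlr13 are given in the same way. Atp7a, a copper transporter, ends 15113 bases before Tlr13 and was at 99.8, 111, 99.3 and 86.5 CPM (log2 fold change -0.18, standard error 0.18). Pgk1, a glycolytic enzyme, lies 26606 bases after it and was at 704, 495, 838 and 747 CPM (log2 fold change 0.40, standard error 0.23). Neither was called, and of the 8 tested genes within 1 Mb of Tlr13, these included, 4 had changes below 0 and 4 above, 3 being wholly lower and 2 wholly higher. Atrx and Magt1, named after their values were seen, were wholly lower along with Atp7a, with log2 fold changes of -0.60 and -0.28. Whether the surroundings of Tlr7 and Tlr13 differ was not tested.

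**Figure D3:**
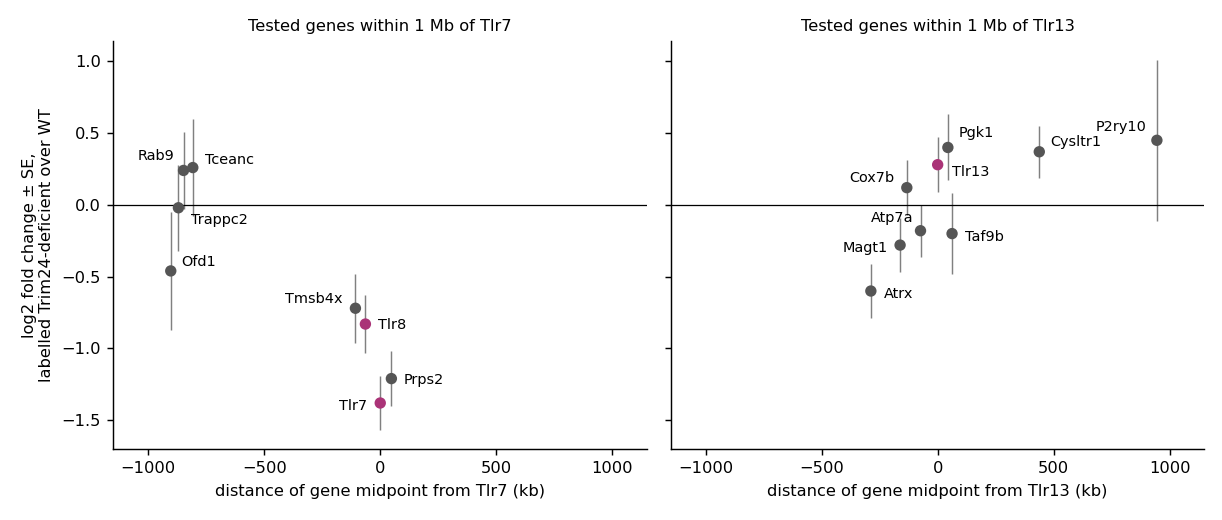
Log2 fold change with its standard error of the tested genes within 1 Mb of Tlr7 (left) and Tlr13 (right), against the distance of each gene's midpoint in kb, with Toll-like receptors in purple. Tmsb4x, Tlr8, Tlr7 and Prps2 lie between -0.72 and -1.38, and the other genes of both windows lie on both sides of 0.

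The bases upstream of 2 X-linked sensors are shown because these genes stood in opposite order between the groups in CPM, although Tlr13 overlapped in FPKM. The RefSeq promoter table used here (GRCm38.p6) matched 7 of the 10 genes, and Tlr4, Tlr7 and Unc93b1 have no entry in that table. The 250 bases before the start of Tlr8 (chrX:167264330-167264579, minus strand) and of Tlr13 (chrX:106143025-106143274, plus strand) read 5′ to 3′ as follows, with matches of the motifs searched in capitals.
Tlr8: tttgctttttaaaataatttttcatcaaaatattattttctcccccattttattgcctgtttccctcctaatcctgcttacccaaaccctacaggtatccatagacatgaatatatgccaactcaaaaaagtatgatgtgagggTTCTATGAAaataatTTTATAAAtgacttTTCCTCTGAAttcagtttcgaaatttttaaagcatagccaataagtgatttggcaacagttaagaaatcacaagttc
Tlr13: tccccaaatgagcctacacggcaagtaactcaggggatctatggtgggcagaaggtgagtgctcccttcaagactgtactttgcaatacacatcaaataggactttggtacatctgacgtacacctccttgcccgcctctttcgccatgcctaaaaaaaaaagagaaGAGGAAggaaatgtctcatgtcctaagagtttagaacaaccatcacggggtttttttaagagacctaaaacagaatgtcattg
Both strands were searched for GAGGAA (the core bound by the macrophage factor PU.1), TATAAA (the TATA box), TTCNNNGAA (the STAT palindrome), the same palindrome with 4 bases between its arms (the spacing preferred by Stat6), the interferon response element, TGANTCA (AP-1) and CACGTG (the E-box). Tlr8 held a STAT palindrome that begins 106 bases before the start, TATA matches on both strands that overlap each other at 91 and 89 bases, and a Stat6-type palindrome at 77 bases that overlaps a PU.1 core on the opposite strand. Tlr13 held a PU.1 core at 83 bases and no match of the other motifs. Distances are from the RefSeq start, whose first transcribed bases were found in the GENCODE transcript compared for Tlr13 but not for Tlr8. Over 32851 promoters of the same length, 23.3% held the PU.1 core, 12.4% the TATA box, 7.02% and 5.85% the shorter and longer palindrome, 2.98% the interferon element, 6.75% the AP-1 motif and 6.02% the E-box. These matches are a description of letters only.

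Levels were compared between genes as FPKM, the authors' value per kilobase of transcript. In WT, Unc93b1 was at 405 ± 40.8 FPKM (SD, n = 2), above 98.2% of the genes tested. Tlr13 followed at 73.2 ± 6.47, Tlr7 at 58.1 ± 3.82, Tlr2 at 55 ± 0.679, Tlr8 at 48.9 ± 0.827 and Tlr1 at 46.6 ± 10.7 FPKM. Neighbours in this order overlapped for Tlr7 and Tlr2 and for Tlr8 and Tlr1, so their order is not set by these libraries. Tlr4 was at 17.8 ± 0.58, Tlr6 at 9.34 ± 1.42, Tlr3 at 6.58 ± 0.417 and Tlr9 at 1.69 ± 0.134 FPKM, each apart from its neighbours. In the libraries labelled Trim24-deficient the order was the same for the first 2 places and the last 4, but Tlr7, at 20.1 ± 1.44 FPKM, stood at place 6 in place of 3, and Tlr1, at 52.9 ± 0.255 FPKM, at place 3 in place of 6.

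The endosomal arm was set against the surface arm in each library by summing FPKM. The 5 endosomal sensors summed to 181 and 196 FPKM in WT and to 133 and 135 FPKM in libraries labelled Trim24-deficient, whereas the 4 surface receptors summed to 120, 137, 135 and 129 FPKM. The endosomal to surface ratio was thus 1.51 and 1.43 in WT and 0.98 and 1.05 in libraries labelled Trim24-deficient. On the log2 scale the mean ratio was 0.55 ± 0.06 in WT and 0.02 ± 0.07 in the other group (SD, n = 2 each), a difference of -0.53, which is given without a test since the members were chosen with results known. Without Tlr7 the difference was -0.24, and with Unc93b1 counted on the endosomal side it turned to 0.13, since the chaperone outweighs all sensors together. The make-up of the endosomal arm also differed, with Tlr13 at 37.9% and 39.7% of its summed FPKM in WT and at 58.1% and 62% in libraries labelled Trim24-deficient, and Tlr7 at 30.6%, 31%, 14.3% and 15.6%. The FPKM ratio of Tlr7 to Tlr8 was 1.15 and 1.23 in WT and 0.705 and 0.917 in the other group.

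**Figure D4:**
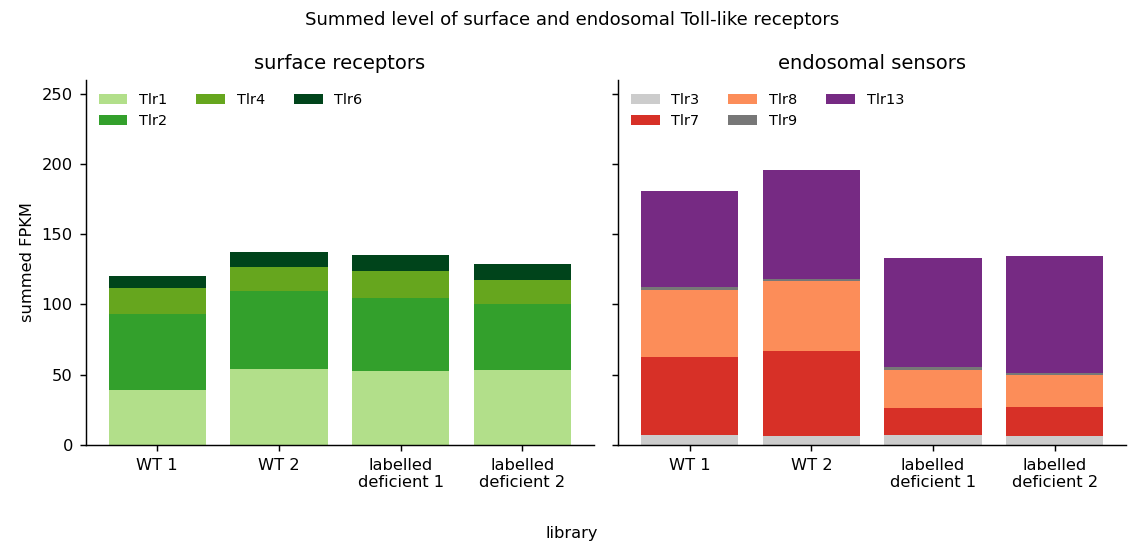
Summed FPKM of the surface receptors (left) and endosomal sensors (right) in each library, stacked by gene. The surface bars lie between 120 and 137 FPKM in all libraries. The endosomal bars stand at 181 and 196 FPKM in WT and at 133 and 135 FPKM in the other group, with smaller blocks of Tlr7 and Tlr8. In TMM-scaled CPM, the surface receptors summed to 425 and 449 in WT and to 509 and 483 in the other group.

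The remaining Toll-like receptors of the mouse had low counts. Tlr5, the flagellin receptor, was at 7.27, 6.88, 4.47 and 3.49 CPM (log2 fold change -0.83, adjusted p = 0.452, edgeR quasi-likelihood). Tlr12, a receptor for protozoan profilin, was at 5.45 and 2.71 CPM in WT and at 17.3 and 9.66 CPM in libraries labelled Trim24-deficient, with groups that did not overlap and a log2 change of 1.71 (standard error 0.45, unadjusted p = 0.0041, adjusted p = 0.19). Tlr11, which acts with Tlr12, had 8, 2, 34 and 10 expected counts and did not pass the filter on low counts.

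The wider pathway was described from gene lists. Over all genes tested, 6.58% were higher and 5.62% lower at an unadjusted p under 0.05 in edgeR. The counts at that p in each list are to be read beside these shares. Of the surface co-receptors, 5 of 6 were tested and edgeR called none, with 1 at an unadjusted p under 0.05 and a median log2 fold change of 0.41. DESeq2 also called none. Ly86, the partner of the receptor homologue Cd180, was at 324 and 200 CPM in WT and at 587 and 406 CPM in libraries labelled Trim24-deficient (log2 fold change 0.92, adjusted p = 0.224, edgeR quasi-likelihood), and Ly96, the partner of Tlr4, was at 30.5, 37.5, 49.8 and 40.5 CPM. Of 15 genes that process or move endosomal sensors and their ligands, 14 were tested and edgeR and DESeq2 called none, with 3 at an unadjusted p under 0.05 in edgeR and a median of 0.14. The cathepsin Ctss, which can cleave these sensors, was at 3030, 2580, 5010 and 4100 CPM (log2 fold change 0.70, adjusted p = 0.275), and the nucleases Rnaset2a and Rnaset2b, which release ligands from RNA and are near-identical copies whose reads may be shared, had log2 fold changes of 0.53 and 0.59. Pld4, an endosomal exonuclease, was at 1290, 1160, 1560 and 1700 CPM (log2 fold change 0.41, adjusted p = 0.464).

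Of 22 adaptors, kinases and factors downstream, all were tested and edgeR called none, with 4 at an unadjusted p under 0.05 and a median log2 fold change of 0.16. DESeq2 called 1, Ikbke (adjusted p = 0.00259). There were 10 genes wholly higher and 3 wholly lower, against 21.4% and 23.0% of all genes. Myd88 was at 205 and 197 CPM in WT and at 342 and 298 CPM in libraries labelled Trim24-deficient (log2 fold change 0.67, adjusted p = 0.214, edgeR quasi-likelihood). Irf7, the factor that links Tlr7 and Tlr9 to interferon, was at 470, 415, 813 and 655 CPM (log2 fold change 0.73, adjusted p = 0.219), and the kinase Ikbke at 94.7, 76.9, 218 and 160 CPM (log2 fold change 1.14, adjusted p = 0.0774). For these 3 genes the groups did not overlap, with the libraries labelled Trim24-deficient higher. Tab2, a scaffold of the kinase Map3k7, was in the reverse order at 59, 65.2, 42.6 and 39.7 CPM (log2 fold change -0.59, adjusted p = 0.256).

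Among 12 negative regulators, 11 were tested and edgeR and DESeq2 called none, with 4 at an unadjusted p under 0.05 in edgeR and a median log2 fold change of 0.37. Irak3, which blocks release of the Irak kinases from Myd88, was at 39, 41.7, 66.7 and 82.4 CPM (log2 fold change 0.89, adjusted p = 0.13, edgeR quasi-likelihood). Socs1, an inhibitor of cytokine signalling, was at 33.5, 14.8, 88.6 and 38 CPM (log2 fold change 1.39, adjusted p = 0.239) and Tnfaip3, the ubiquitin-editing inhibitor A20, at 58.4, 29, 79 and 65.8 CPM (log2 fold change 0.73, adjusted p = 0.373). Il1rl1, which encodes the receptor of interleukin 33, was in the reverse order at 4.24, 7.08, 3.83 and 2.26 CPM. Of the cytosolic sensors, 12 were tested and edgeR and DESeq2 called none. The unadjusted p was under 0.05 in edgeR for 5, against 6.58% of all genes higher and 5.62% lower. Their median was 0.47, with 6 of the 12 wholly higher and 0 wholly lower, against 21.4% and 23.0% of all genes. Zbp1, a sensor of Z-form nucleic acid, was at 173, 117, 371 and 213 CPM (log2 fold change 1.01, adjusted p = 0.214), Nod1, a sensor of peptidoglycan fragments, at 54.3, 46.9, 107 and 58.2 CPM, and Sting1, the adaptor of DNA sensing, at 180, 136, 275 and 209 CPM. Dhx58, a relative of the RNA helicase sensors, was at 150, 124, 265 and 173 CPM.

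Of 16 genes known to be induced through Toll-like receptors, 14 were tested, and 3 of these rose, against 0.292% of all genes. Il1b rose from 28.7 and 33.8 CPM to 106 and 189 CPM (log2 fold change 2.24, adjusted p = 0.0123, edgeR quasi-likelihood). Ptgs2, the inducible cyclooxygenase, rose from 17.6 and 11.7 to 61.8 and 105 CPM (2.51, adjusted p = 0.0112), and Il1a from 1.01 and 2.29 to 12.8 and 43.2 CPM (4.07, adjusted p = 0.0371). All 3 are inflammatory mediators that signals other than Toll-like receptors also induce, and all 3 were known to be high in these libraries when the list was written. Nos2 was at 12.5, 2.5, 45.4 and 49.5 CPM (log2 fold change 2.65, adjusted p = 0.0697), and the chemokines Ccl3, Ccl4 and Ccl5 had log2 fold changes of 0.64, 0.76 and 1.12 without passing. Tnf, at 76.1, 55.6, 108 and 69.5 CPM, overlapped between the groups, as did Il10 at 19.6, 11.5, 13.2 and 15.2 CPM.

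The replicate block, for which the labels give no reason beyond a shared number and under which 3.76% of all genes were called higher, changed the call of several genes named above. It called Tlr12 (adjusted p = 0.00133), Ly86 (0.000395) and Ctss (0.00817) higher. Of the adaptors and kinases it called 3 higher, Ikbke, Irf7 and Myd88, with adjusted p of 1.09e-05, 0.0126 and 0.0327. Of the negative regulators it called 3 higher, Socs1, Irak3 and Tnfaip3, with adjusted p of 7.24e-07, 0.00249 and 0.00924. Of the cytosolic sensors it called 3 higher, Zbp1, Dhx58 and Nod1, with adjusted p of 0.000235, 0.041 and 0.0465. Of the induced genes it called 8 higher, Nos2, Ccl3, Ccl4, Ccl5 and Cxcl9 besides the 3 called without it, Cxcl9 being named after its value was seen.

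**Figure D5:**
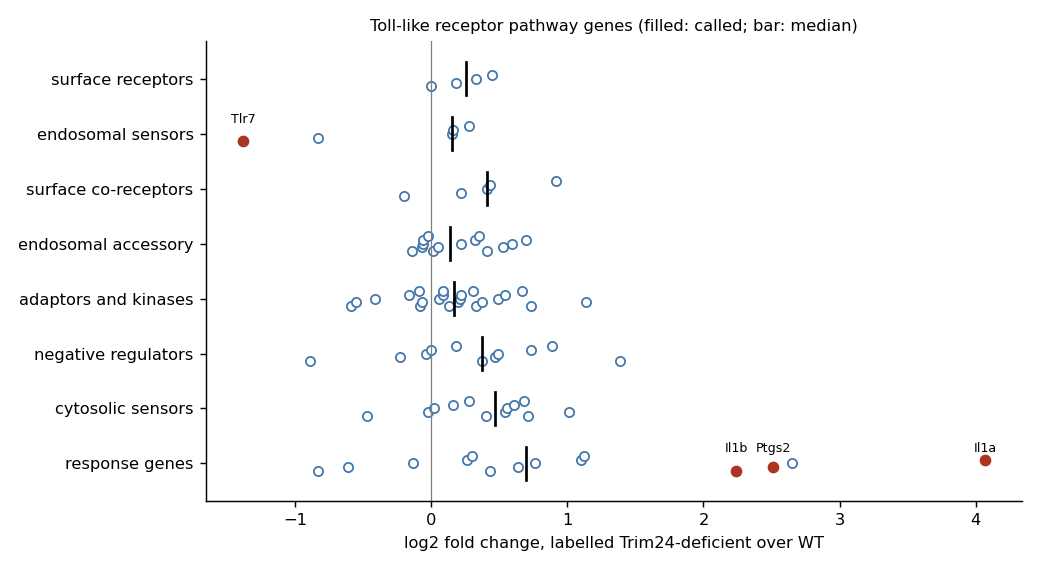
Log2 fold change of every tested gene of the pathway lists, libraries labelled Trim24-deficient over WT, 1 point per gene, with the median of each list as a bar. Filled points are called genes: Tlr7 at -1.38, and Il1b, Ptgs2 and Il1a at 2.24, 2.51 and 4.07. The list medians lie between 0.14 and 0.70.

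Markers of monocytes moved with the group label. The 5 monocyte markers summed to 556 and 715 CPM in WT and to 1750 and 1190 CPM in libraries labelled Trim24-deficient, and all 5 were higher in both, against 21.4% of all genes. The 9 neutrophil markers summed to 181, 213, 273 and 420 CPM, with the defining Ly6g at 0 in both WT libraries and between 0.822 and 1.92 CPM in the others. The 6 melanoma markers summed to 810, 770, 607 and 803 CPM. Of these 6, 4 were lower in both libraries labelled Trim24-deficient, against 23.0% of all genes, and edgeR called none. Their median log2 fold change was -0.54. With the replicate block, Tyrp1 (melanoma) and Flt3 (conventional dendritic cell) were called lower, against 1.85% of all genes. That fit also called 5 monocyte, 3 neutrophil and 1 macrophage marker higher, against 3.76%. T and NK cell markers summed to 80, 52.9, 164 and 53.6 CPM, and plasmacytoid dendritic cell markers to 74.9, 97.5, 58.4 and 61 CPM. B cell markers summed to 55.3, 46.3, 55.4 and 51.6 CPM. The macrophage markers summed to between 16700 and 20400 CPM. The part of these cells in the values of the Toll-like receptors was not tested.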

How the data were processed

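RNA of sorted TAMs was sequenced in 2 WT libraries and 2 libraries labelled Trim24-deficient, grouped by their titles. Bowtie and RSEM (versions not given in the sources used here) were used by the authors on GRCm38/mm10, and they deposited, per library, an expected count (not normalized) and an FPKM value (scaled by RSEM to transcript length and library total) for each gene above 0. A gene missing from a table was set to 0. Read length and strandedness are not given in the sources used here, so reads of overlapping antisense genes could not be told apart.

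Of 16739 genes, 16698 matched a symbol by Entrez identifier in the RefSeq table. Gene positions are from RefSeq and strands and exon counts from GENCODE M21, both on GRCm38. After rounding of the expected counts, edgeR 4.0.16 in R 4.3.3 applied filterByExpr and TMM scaling and compared the labels by glmQLFit and glmQLFTest with no block term. A call needed more than a 1.5-fold change and a Benjamini-Hochberg adjusted p under 0.05, the thresholds of the study. Standard errors are the log2 fold change divided by the square root of F. The members and gene lists were chosen with earlier results of these data known. Genes named besides the members are the other Toll-like receptors, Trim24, X- and Y-linked controls, the nearest tested neighbours of X-linked members, and from each pathway list the called genes and up to 4 others with the largest change and no overlap between groups, apart from markers and genes said to be chosen later. Tnf and Il10 were named after their values were seen. Values of some single marker genes are not reported here.

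The fit was repeated with replicate numbers as a block, with DESeq2 1.42.0, library totals, upper-quartile scaling, no low-count filter, a minimum of 10 counts per sample throughout, limma 3.58.1 on FPKM (log2 with a pseudocount of 1 or 0.1) for genes of at least 1 FPKM in at least 2 samples, a trend on gene length taken out of each library, a fit without X- and Y-linked genes other than the members, and each library left out. Counts were also simulated for these libraries with 200 changed genes, and edgeR was run on 11123 genes in all. It recovered 94 of 98 tested genes changed 4-fold and 43 of 98 changed 2-fold, with 11 false calls. Every simulated gene took the spread of the edgeR trend at its level. Differences in spread between genes of the same level were left out, so these figures may be better than in the real libraries.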

Additional observations from a re-analysis of the deposited data

How the results depend on the processing

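The number of genes called between the groups was 42 (33 higher, 9 lower). It was 156 with DESeq2, 23 (14 higher, 9 lower) with limma on log2(FPKM + 1), 20 (11 higher, 9 lower) on log2(FPKM + 0.1), and between 25 and 652 when 1 library was left out: 66 without WT replicate 1, 25 without WT replicate 2, 405 without the library labelled Trim24-deficient replicate 1 and 652 without replicate 2. A fit on 3 libraries assumes that the lone library varies like the other group. The number of members called was 1, and it was 2 with DESeq2 and between 0 and 2 with 1 library left out. Tlr8 was the second member where 2 were called, and 0 were called without WT replicate 2, where Tlr7 had an adjusted p of 0.121. The cause was not tested. With the replicate block, 634 genes (425 higher, 209 lower) and 2 members were called, Tlr7 with a log2 fold change of -1.38 and Tlr8 with -0.84. That fit used an infinite prior, so its p-values take the spread from all genes. Samples share only a number here: deviations from the group means correlated at 0.165 between libraries of the same number, and with 2 libraries per group this is no test of pairing.

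Library totals alone moved the median log2 fold change of all genes to -0.15, upper-quartile scaling to -0.06 and limma on FPKM to -0.13 and -0.15. Of the members, 2 changed sign. Tlr2, at a ratio of 0.997, had log2 fold changes of 0.01 with DESeq2, 0.00 without the low-count filter, 0.00 with the length trend removed and -0.06 to 0.05 with 1 library left out. Tlr9 had -0.03 and -0.08 with limma on log2(FPKM + 1) and log2(FPKM + 0.1), and -0.52 to 0.63 with 1 library left out, -0.52 being the value without the library labelled Trim24-deficient replicate 1. The difference in the endosomal to surface ratio, -0.53, was -0.24 without Tlr7 and 0.13 with Unc93b1. Tlr9 had 19 to 41 counts per library, and the shares of counting error and of spread between libraries in its interval were not tested.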
